A study of Mus musculus with 6 samples.

Results

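The genes described here are 9 immediate early genes of the mouse, Fos, Fosb, Fosl1, Jun, Junb, Egr1, Ier2, Ier3 and Atf3, taken as a fixed list of names. Each probe set whose platform annotation gives exactly 1 gene symbol among these names was used, which gave 11 of the 45101 probe sets on the array and 9 of the 18193 genes tested. Jun and Fosl1 had 2 probe sets each and the other 7 genes had 1. The arrays measured RNA of the mouse embryonic stem cell line OLV2-1, which carries the fluorescent protein Venus as a knock-in reporter of Oct4, so all 3 groups carry the reporter allele. ESC are undifferentiated cells sorted as Venus-positive and, per the sorting protocol, positive for CD31 (Pecam1). EpiSC-like cells are the Venus-positive, Pecam1-negative fraction at day 3 of SFEBq, a culture of cell aggregates without serum for neural induction. The group labelled Day7_Oct4-Venus+, called day 7 here, is the Venus-positive fraction after 7 days of that culture, with no Pecam1 gate named. Each group has 2 arrays, all 6 come from 1 cell line, and separate cultures are not stated in the labels. The p-values therefore reflect only how far these samples differ, which may be technical.

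Immediate early genes are switched on within minutes of a stimulus, without new protein synthesis, mainly through the ERK, JNK and p38 kinase pathways acting on SRF, ETS-type and CREB-type factors at their promoters. Their transcripts and proteins are short-lived. Fos and Jun family proteins pair through leucine zippers to form the AP-1 transcription factor, and in pluripotent cells FGF acting through ERK is one known input. These genes are also known to respond to tissue dissociation, warming and stress, so the handling of the cells belongs beside every value. For ESC and the day 3 aggregates, dissociation used 0.25% trypsin with EDTA, and cells were then kept for 1 hour in SFEBq medium and stained with antibody for 45 minutes on ice, whereas day 7 aggregates were dissociated in saline with 1 mM EDTA and no recovery or staining is named. ESC and EpiSC-like cells therefore shared this preparation, while a difference of day 7 from either group cannot be told apart from a difference in handling.

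The regulatory sequence just before the start of 3 members is printed because their levels, given further on, behaved differently: Ier3 had the only called change, Fos had the smallest span of group means, and Jun had its highest signals in EpiSC-like cells. Promoters of 6 of the 9 members were taken from a RefSeq promoter table of build GRCm38.p6. None was taken for Fosl1, Egr1 and Ier2, which does not show that the table lacks them. Each sequence holds the 250 bases before the annotated start, 5′ to 3′ on the strand of the gene, in lower case with motif matches in capitals. The windows are chr17:35821463-35821712 (plus strand) for Ier3, chr12:85473640-85473889 (plus strand) for Fos and chr4:95052223-95052472 (minus strand) for Jun.
Ier3: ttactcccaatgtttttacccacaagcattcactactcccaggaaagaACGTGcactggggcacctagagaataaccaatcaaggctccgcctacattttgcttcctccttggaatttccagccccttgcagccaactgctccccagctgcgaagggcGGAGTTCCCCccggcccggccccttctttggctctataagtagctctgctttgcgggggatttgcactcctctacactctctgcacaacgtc
Fos: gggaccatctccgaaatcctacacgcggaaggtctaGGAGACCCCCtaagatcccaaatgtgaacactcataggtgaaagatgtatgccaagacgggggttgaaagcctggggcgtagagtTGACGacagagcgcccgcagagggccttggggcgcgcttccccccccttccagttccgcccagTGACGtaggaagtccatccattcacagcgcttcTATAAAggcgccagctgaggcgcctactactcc
Jun: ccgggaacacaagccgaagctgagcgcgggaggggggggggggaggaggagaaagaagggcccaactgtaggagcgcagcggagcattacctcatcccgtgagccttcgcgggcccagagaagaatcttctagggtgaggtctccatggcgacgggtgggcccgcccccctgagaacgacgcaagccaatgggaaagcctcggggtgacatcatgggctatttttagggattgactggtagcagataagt
Motifs were searched on both strands: the CRE core TGACG bound by CREB and ATF proteins, the AP-1 site TGANTCA, the core ACGTG bound by hypoxia-inducible and related factors, the TATA box TATAAA, the Egr site GCGNGGGCG, the CArG box bound by SRF, and the NF-kB site. TGACG and ACGTG can overlap where TGACGTG occurs. The motif set was chosen after the values were seen, and a match is a description of letters, not a bound site. Ier3 held 1 ACGTG core starting 202 bases before the gene start and 1 NF-kB match at 92 bases. Fos held CRE cores at 129 and 66 bases, an NF-kB match at 214 bases and a TATA box at 33 bases. Jun held no match to these 7 motifs in this window, and variants of the motifs were not searched. Fosb held 1 CRE core, 1 Egr site and 1 NF-kB match, and Junb and Atf3 held 1 CRE core each. Among all 32851 promoters of the table, cut to the same 250 bases, 17.8% held TGACG, 16.6% ACGTG, 12.4% TATAAA and 7.25% the NF-kB site. The Egr site was in 4.7%, the AP-1 site in 6.75% and the CArG box in 1.47%. None of the 6 matched members held either of the last pair in its window, and sequence further upstream was not searched.

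The 6 arrays had median signals between 63.99 and 76.3 intensity units, and replicates of a group correlated across genes with r from 0.975 to 0.978 on the log2 scale. The replicate 1 arrays and the replicate 2 arrays differed technically, with highest signals of 30793 to 36841 and of 63296 to 66643. Group differences are therefore also given within each set of 3 arrays. The replicate 2 set was itself uneven. Its poly-A control probe sets averaged 218.5 on the day 7 array, but 26.7 on the ESC array and 28.5 on the EpiSC-like array. The replicate 1 arrays averaged 134 to 143. A day 7 difference within the replicate 2 set is thus not technically matched. For actin, the 3′ probe set exceeded the 5′ one, a measure of RNA length, by log2 values of 0.71 and 0.94 at day 7 and by 0.46 to 0.58 elsewhere. The same measure for Gapdh did not set day 7 apart, at -0.12 and -0.18 within a range of -0.36 to 0.0054 on the remaining arrays. Sox2, a pluripotency factor, read 15215 to 22517 on all 6 arrays, but its list of 6 naive and core pluripotency markers was lower outside ESC. In EpiSC-like cells against ESC, 6 of 6 differences were below 0 (median log2 -1.24). Of these, 2 were called lower (limma adjusted p under 0.05), where 1.90% of all genes were called. At day 7 against ESC, 6 of 6 were below 0 (median -0.63) and 0 were called, where 1.05% of all genes were. Fgf5, a marker of the postimplantation epiblast, read 1009 and 1243 in EpiSC-like cells, 409 and 215 at day 7 and 26.2 and 25.9 in ESC. Array signals are not comparable between probe sets, so no member's level is set against another's. Of the 9 members, 5 had a mean signal of at least 183 units, the median over all genes tested, namely Fos, Jun, Egr1, Ier2 and Ier3, and no member was left out of the test for being dim.

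Across the 3 groups the members did not move as one. Ier3 rose 5.37-fold at day 7 against ESC on the log2(signal + 16) scale, while Egr1 and Ier2 had their lowest signals at day 7, Jun its highest in EpiSC-like cells and Fos nearly the same mean in all groups. At a limma adjusted p under 0.05 over all 18193 genes, 1 of 9 members was called in day 7 against ESC, where 1.05% of all genes were called, and 3 of 9 members against 18.3% of all genes had an unadjusted p under 0.05. None of the 9 was called in EpiSC-like cells against ESC, where 1.90% of all genes were called, and 1 member and 2903 of the 18193 genes had an unadjusted p under 0.05. None was called in day 7 against EpiSC-like cells, where 0% of genes were called by limma, although 14.1% of all genes and 1 of the members had an unadjusted p under 0.05. From ESC to EpiSC-like cells the members had a median log2 difference of -0.33, against 0.03 over all genes. From ESC to day 7 it was -0.42 against 0.02, and from EpiSC-like cells to day 7 it was -0.09 against -0.02. The 3 comparisons share arrays and are not separate evidence.

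**Figure D1:**
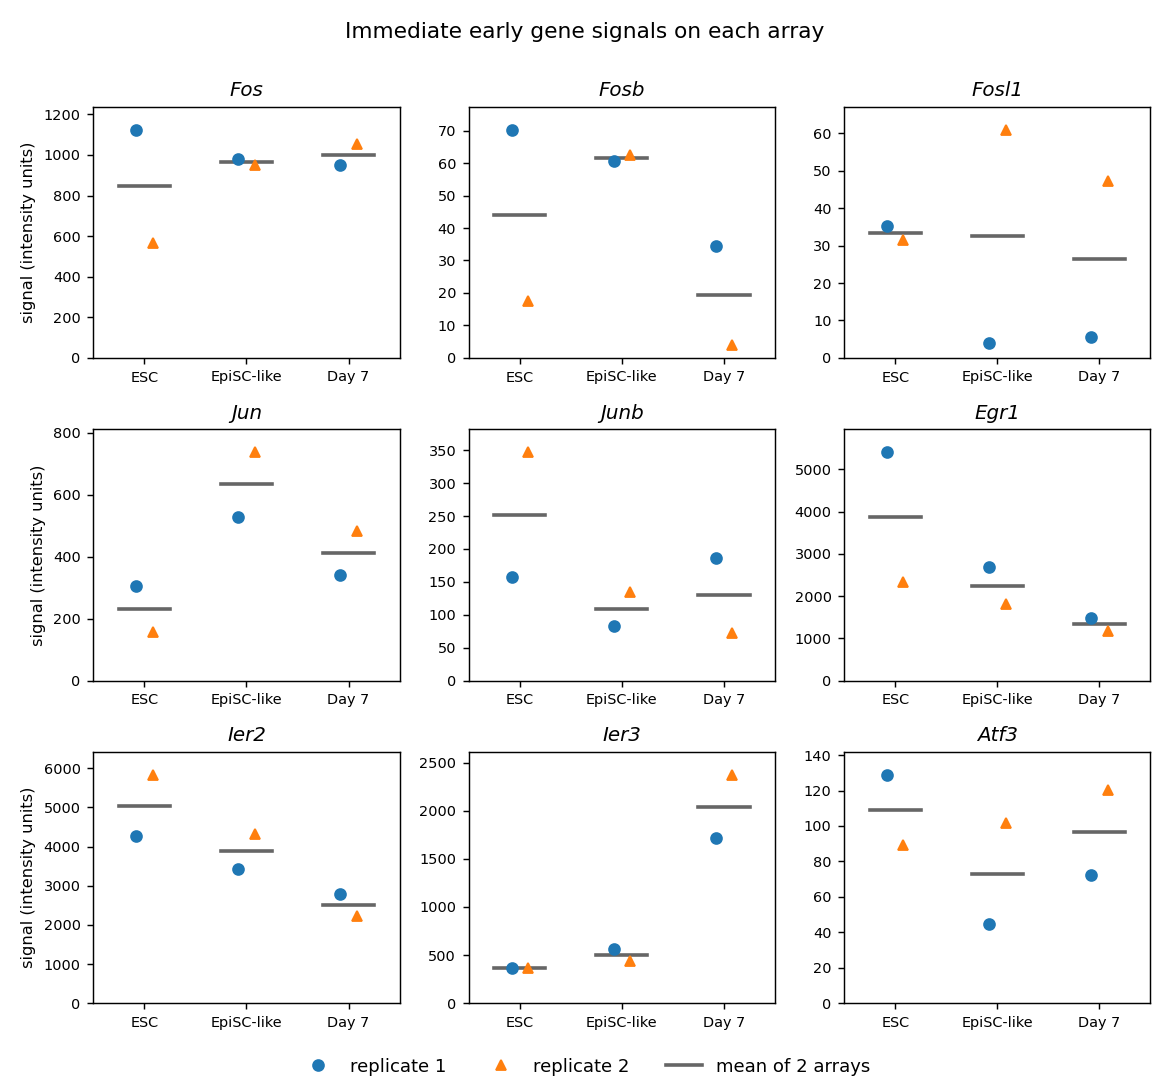
Signal of each of the 9 members (vertical axis, linear intensity units, starting at 0, a separate scale for each gene) in ESC, EpiSC-like and day 7 cells, with replicate 1 as circles, replicate 2 as triangles and the mean of 2 arrays as a bar. Both day 7 arrays of Ier3 (1711 and 2371) lie above the other 4 (360.4 to 558.3), and the pair of ESC points is far apart for Fos and Egr1.

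Ier3 (NCBI gene 15937) encodes a small protein that is induced by growth factors, cytokines and stress and is known for effects on cell survival and ERK signalling. Its signal was 364 and 360.4 in ESC, 558 and 433 in EpiSC-like cells and 1711 and 2371 at day 7. The 3 groups did not overlap, and day 7 stood clearly above the other 4 arrays. Day 7 exceeded ESC by 2.43 ± 0.27 on the log2 scale (SE; limma adjusted p = 0.0292), by 2.19 within the replicate 1 arrays and by 2.67 within the replicate 2 arrays. Day 7 exceeded EpiSC-like cells by 2.00 ± 0.27 (1.59 and 2.41 within the sets), which missed the threshold (limma adjusted p = 0.0818). From ESC to EpiSC-like cells, which shared their preparation, the difference was 0.43 ± 0.27 with a 95% interval from -0.22 to 1.07 (limma adjusted p = 0.521). The size of the day 7 difference barely depended on the setting, but the call did. It was lost with the replicate number as a block (2.43, adjusted p = 0.0668), with a pseudocount of 1 (adjusted p = 0.0956), with all probe sets fitted together (adjusted p = 0.0661) and without any 1 array (2.19 to 2.66, adjusted p from 0.0721 to 0.222).

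Markers of other cells were not even across the day 7 arrays on which Ier3 was high. All 8 listed primitive and visceral endoderm markers were measured, and their summed signal was 615 to 881 in ESC, 772 to 905 in EpiSC-like cells, and 2550 and 11014 at day 7. Ttr, a secreted endoderm protein, read 90.8 and 1125 at day 7 and 2.85 to 19.2 on the other 4 arrays. All 8 had a day 7 minus ESC difference above 0 (median log2 2.16), and 0 of 8 were called. Sox17, a defining endoderm factor, read 111 and 751 at day 7 and 19.3 to 49.3 on the others, whereas Gata4, another, read 36.8 and 55.1, within the 17.9 to 63.0 of the others. Col4a1, of the same list, read 1853 and 7417 at day 7 and so made up most of both sums. The 4.3-fold step in the summed markers between the day 7 arrays was not that of Col4a1 alone. All 8 markers read higher on day 7 replicate 2 than on replicate 1, among them Afp (64.3 and 471) and Dab2 (211 and 684). Ier3 had a 1.4-fold step between these arrays, and the part of such cells in the Ier3 result was not tested. The 5 neural progenitor markers summed to 380 and 419 in ESC, 1623 and 2048 in EpiSC-like cells and 1493 and 2236 at day 7. Of these, 3 of 5 were called higher in day 7 against ESC, where 1.05% of all genes were called. Fabp7 read 666 and 1511 of the day 7 sums. Differences were above 0 for 4 and below 0 for 1, Pax6, which read 171 and 184 at day 7 against 189 and 213 in ESC. The part of such cells in the Ier3 result was not tested either. The 6 fibroblast and mesenchyme markers summed to 324 to 434 in ESC, 495 to 577 in EpiSC-like cells, and 342 and 767 at day 7, with 0 called between day 7 and ESC. Among them Pdgfra, a growth factor receptor, read 67.4 and 527 at day 7, against 4.78 to 38.8 on the other 4 arrays. Pdgfra thus made up most of the sum of 767 on day 7 replicate 2. The list as a whole did not follow it, with 3 differences above 0 and 3 below in day 7 minus ESC (median log2 -0.03). In a sorted population, more cells of a type and more RNA per cell cannot be told apart.

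Egr1 (NCBI gene 13653) encodes a zinc finger factor that is a direct target of ERK signalling through SRF and its partners. Its signal was 5403 and 2330 in ESC, 2683 and 1814 in EpiSC-like cells and 1482 and 1180 at day 7. Both day 7 arrays lay below the other 4, while ESC and EpiSC-like values overlapped. Day 7 was below ESC by a log2 difference of -1.41 ± 0.44 (95% interval -2.46 to -0.37, -1.85 and -0.97 within the sets), which did not pass (limma adjusted p = 0.171). EpiSC-like cells stood at -0.68 ± 0.44 against ESC (limma adjusted p = 0.525). Both differences depended on which ESC array was kept. Without ESC replicate 1 they were -0.81 for day 7 and -0.08 for EpiSC-like cells, and without ESC replicate 2 they were -2.02 and -1.29. Ier2 (NCBI gene 15936), which encodes a nuclear protein induced by serum and growth factors, read 4264 and 5830 in ESC, 3428 and 4323 in EpiSC-like cells and 2781 and 2237 at day 7. Its day 7 values were likewise below those of the other 4 arrays. The log2 difference of day 7 from ESC was -0.99 ± 0.28 (95% interval -1.66 to -0.33, -0.61 and -1.38 within the sets, limma adjusted p = 0.141), and that of day 7 from EpiSC-like cells was -0.62 ± 0.28 (limma adjusted p = 0.387).

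Of the Jun genes, whose proteins form AP-1 with Fos partners or with each other, Jun (NCBI gene 16476) read 305.1 and 157 in ESC, 529 and 738 in EpiSC-like cells and 341 and 485 at day 7 on its brighter probe set. Both EpiSC-like arrays were the highest, and the ESC arrays the lowest, so no pair of groups overlapped. EpiSC-like cells exceeded ESC by 1.44 ± 0.38 (95% interval 0.54 to 2.35), by 0.76 in the replicate 1 set and 2.12 in the replicate 2 set, and this did not pass over all genes (unadjusted p = 0.00744, limma adjusted p = 0.128). The labels name the same dissociation, recovery and staining for both groups, while their Pecam1 gates differed. The Pecam1 transcript itself read 728 and 343 in ESC, 400.9 and 177 in EpiSC-like cells and 767 and 488 at day 7. It was lower in EpiSC-like cells within each replicate set, but ESC replicate 2 read below EpiSC-like replicate 1. The dimmer Jun probe set read 102 and 55.0 in ESC, 122 and 136 in EpiSC-like cells, and 102 and 155 at day 7. It also placed EpiSC-like cells above ESC, by 0.66 ± 0.35 (limma adjusted p = 0.540 over all probe sets), but it did not place them above day 7 (day 7 minus EpiSC-like -0.03 ± 0.35, limma adjusted p = 0.987). Both probe sets placed the EpiSC-like arrays above both ESC arrays, while on the dimmer one ESC and day 7 both read 102 on their replicate 1 arrays. Junb (NCBI gene 16477), whose protein is a less active AP-1 partner in many settings, read 157 and 347 in ESC, 83.0 and 134 in EpiSC-like cells and 187 and 72.0 at day 7. EpiSC-like values were below both ESC values, with a log2 difference of -1.04 ± 0.52 (-0.81 and -1.27 within the sets, limma adjusted p = 0.404). The day 7 arrays straddled the others, with differences from ESC of 0.22 and -2.04 in the sets.

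Of the Fos genes, which supply the partner that cannot pair with itself, Fos (NCBI gene 14281) read 1125 and 568 in ESC, 980.3 and 949.5 in EpiSC-like cells and 949.5 and 1054 at day 7. The 4 arrays of the SFEBq culture lay within 949.5 to 1054, and the ESC arrays lay on either side of them. The log2 difference of day 7 from ESC was 0.32 ± 0.35 with a 95% interval from -0.51 to 1.15 (limma adjusted p = 0.681), and that of day 7 from EpiSC-like cells was 0.05 with an interval from -0.78 to 0.88. The upper bound for day 7 against ESC corresponds to a 2.21-fold higher level of Fos. Fosb (NCBI gene 14282) was dim, with 70.3 and 17.5 in ESC, 60.7 and 62.4 in EpiSC-like cells and 34.5 and 4.08 at day 7. Its day 7 values were below those of EpiSC-like cells, by a log2 difference of -1.28 ± 0.57 (limma adjusted p = 0.387), and the ESC values overlapped those of each group. Fosl1 (NCBI gene 14283), which encodes the Fos relative Fra-1, was the only member below the 25th percentile of mean signal (33.5 units). Its brighter probe set read 4.03 to 61.0 over the 6 arrays and its other probe set 12.7 to 53.8, with overlapping groups on both and differences from 0 that were smaller than their standard errors.

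Atf3 (NCBI gene 11910), a stress-induced factor of the ATF family that can pair with Jun proteins, read 129 and 89.4 in ESC, 44.4 and 102 in EpiSC-like cells and 72.5 and 120.4 at day 7. All 3 groups overlapped. Relative to ESC it stood at a log2 difference of -0.55 ± 0.40 in EpiSC-like cells and -0.17 ± 0.40 at day 7, and the step between these 2 was 0.38 ± 0.40, with limma adjusted p from 0.594 to 0.868.

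**Figure D2:**
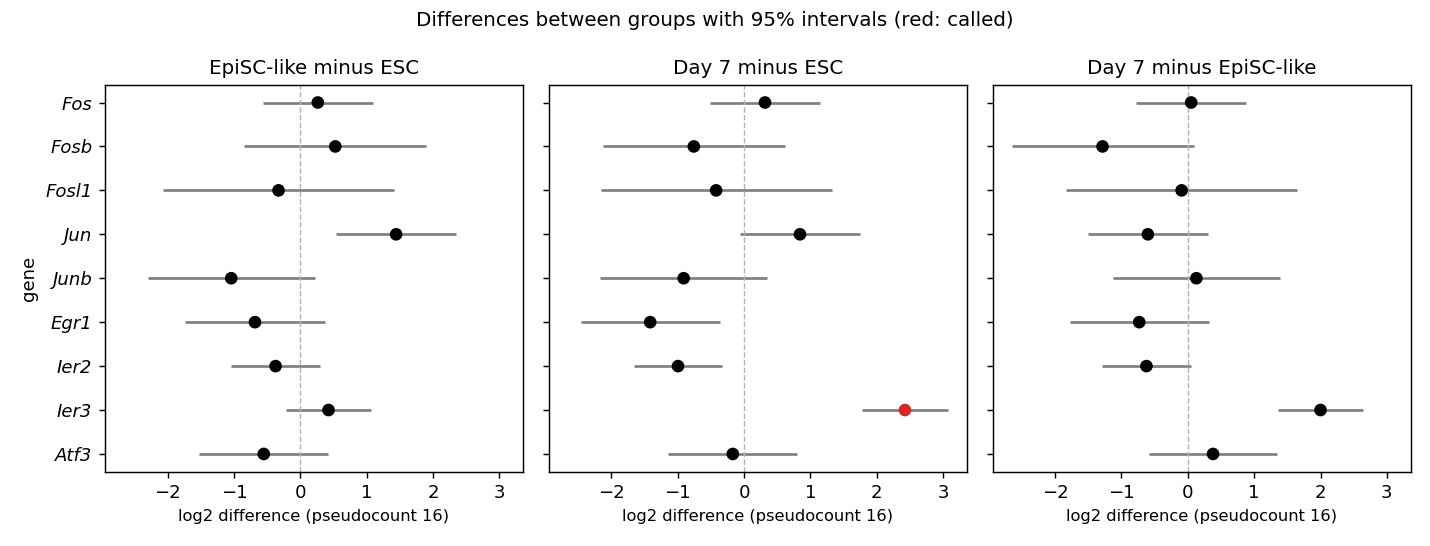
Log2 difference of each member (points, with 95% intervals from the limma fit as bars) in a panel for each pair of groups, on log2(signal + 16), with a called difference in red. The interval of Ier3 lies above 0 in both day 7 panels (1.78 to 3.07 and 1.36 to 2.64), that of Jun above 0 in the first (0.54 to 2.35), and those of Egr1 and Ier2 below 0 in day 7 minus ESC.

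Separation of the arrays without a threshold gave the same picture. In EpiSC-like cells against ESC, 3 of 9 members had groups that did not overlap (Jun and Ier3 higher, Junb lower), where 44.8% of all genes did not overlap. In day 7 against ESC 4 of 9 did not (Ier3 and Jun higher, Egr1 and Ier2 lower), where the share of all genes was 50.2%. In day 7 against EpiSC-like cells 5 of 9 did not (Ier3 higher, and Fosb, Jun, Egr1 and Ier2 lower), where it was 45.9%. The members' counts thus lay near the background in each comparison. A change of at least 2-fold was seen for 2 of 9 members in each comparison, where 9.29% of all genes reached it between EpiSC-like cells and ESC, 10.0% between day 7 and ESC and 7.61% between day 7 and EpiSC-like cells.

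The gap between replicates was widest in ESC for 5 of 9 members (Fos, Fosb, Jun, Egr1 and Ier2) and wider in another group for Fosl1, Junb, Ier3 and Atf3. Over the 9 members the absolute log2 gap had a median of 0.89 among the ESC arrays, 0.47 among EpiSC-like arrays and 0.49 among day 7 arrays. For the 5 brighter members named above, the median absolute log2 gap between the ESC replicates was 0.89, against 0.28 over the 9097 genes with a mean signal of at least the median. The gap was 0.35 against 0.28 among EpiSC-like replicates and 0.33 against 0.21 among those of day 7. Only Junb and Ier2, 2 of the 9, were higher on ESC replicate 2, by 1.07 and 0.45. The largest steps the other way were those of Fosb (1.36), Egr1 (1.21), Fos (0.97) and Jun (0.89). The gaps of Fos, Jun and Egr1 each exceeded the 90th percentile of those 9097 genes in ESC (0.75). Ier3 differed by 0.01 between the ESC arrays. Without ESC replicate 2, the Fos difference of day 7 from ESC turned from 0.32 to -0.17, and that of EpiSC-like cells from ESC from 0.26 to -0.22.

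Other genes of the same response were read from 5 lists and did not move as one either. Of 26 other rapid response genes, 0 were called higher and 2 lower in EpiSC-like cells against ESC, where 1.90% of all genes were called (11 differences above 0 and 15 below, median log2 -0.33). Klf4, a Krüppel-like factor of naive stem cells, fell from 8870 and 7622 to 1413 and 450.0 (-3.34 ± 0.55, limma adjusted p = 0.0460), and Hbegf, an EGF-family ligand, fell from 1277 and 1821 to 434 and 327 (-1.97 ± 0.28, limma adjusted p = 0.0325). At day 7 against ESC, 1 was called higher and 1 lower, where 1.05% of all genes were called (12 above 0 and 14 below, median -0.08). Gadd45b, a stress-response gene, rose from 612 and 661 to 2866 and 2517 (2.05 ± 0.22, limma adjusted p = 0.0292), after 437 and 407 in EpiSC-like cells. Myc, a growth-promoting factor, fell from 908 and 579 to 94.5 and 84.6 (-2.81 ± 0.31, limma adjusted p = 0.0292). Gadd45b was thus called higher at day 7, as Ier3 was, in arrays where Myc was called lower. With the replicate number as a block 0 genes were called by limma in any comparison, so the calls of these list genes were lost with that of Ier3, and 3925 of all genes had an unadjusted p under 0.05 in day 7 against ESC with the block and 3338 without it.

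Of 14 feedback and decay genes, 1 was called higher and 0 lower in each comparison with ESC, against the same 1.90% and 1.05% of all genes. Differences above 0 numbered 12 of 14 in EpiSC-like cells (median 0.29) and 8 of 14 at day 7 (median 0.11). Rgs2, a regulator of G protein signalling, rose in EpiSC-like cells from 24.3 and 5.74 to 179 and 151 (2.61 ± 0.37, limma adjusted p = 0.0334). Dusp5, a nuclear ERK phosphatase, rose at day 7 from 30.7 and 36.2 to 266 and 236 (2.43 ± 0.34, limma adjusted p = 0.0384), after 237 and 118 in EpiSC-like cells. Dusp6, the cytoplasmic ERK phosphatase, had values of 1955 and 1448 at day 7 against 2889 to 4447 on the other 4 arrays, and its difference of -0.89 ± 0.26 from ESC did not pass (limma adjusted p = 0.150). Of 14 AP-1 partners and relatives, 0 were called in any comparison, with medians from -0.20 to 0.07. The widest difference was that of Maf, a large basic leucine zipper factor, which read 47.4 and 270.3 at day 7 against 2.44 to 18.0 elsewhere (2.68 ± 0.67 from ESC, limma adjusted p = 0.114). Batf, a basic leucine zipper partner of Jun proteins, read 59.5 and 98.6 in ESC and 8.66 to 24.4 on the other 4 arrays (-1.81 ± 0.29 for day 7 minus ESC, limma adjusted p = 0.0522).

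Of 18 measured upstream kinases and factors of 24 listed, 0 were called, and all their differences lay between -0.64 and 0.95. Srf, the serum response factor, read 409 and 372 in ESC, 728 and 815 in EpiSC-like cells and 553 and 430 at day 7. Its order of group means, with the highest in EpiSC-like cells, was that of the brighter Jun probe set (0.95 ± 0.24 for EpiSC-like minus ESC, limma adjusted p = 0.119). Of 12 measured heat shock genes of 13 listed, 0 were called, with medians of 0.11, 0.02 and 0.08. Hspa1a, an inducible HSP70 gene, had the widest difference, with 354 and 53.8 in ESC, 536 and 819 in EpiSC-like cells and 1147 and 1359 at day 7 (2.98 ± 0.72 for day 7 minus ESC, limma adjusted p = 0.110). Both day 7 arrays were above the other 4, and the ESC arrays differed most.

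**Figure D3:**
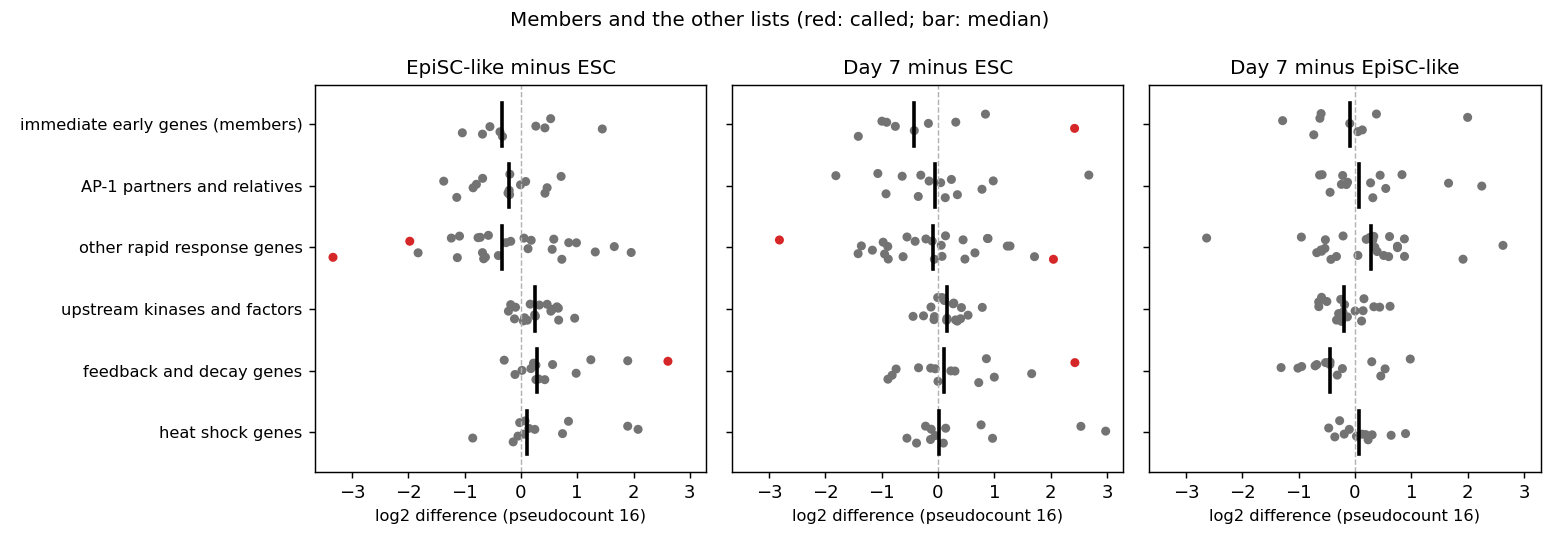
Log2 differences on log2(signal + 16) of the 9 members and of the genes of 5 further lists (1 point per gene, called genes in red, bar at the list's median) in the 3 comparisons. Medians lie between -0.44 and 0.29, and the called points are Klf4, Hbegf and Rgs2 in EpiSC-like minus ESC and Ier3, Gadd45b, Myc and Dusp5 in day 7 minus ESC.

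The genes with the most similar profile over the 6 arrays were found for the 3 members with the widest span of group means, Ier3, Jun and Egr1. Likeness was the root mean square difference in log2(signal + 16) after each gene was centred on its own mean, among the same 9097 genes. Nearest to Ier3 were P4ha2, a collagen prolyl hydroxylase subunit (0.14), Adm, which encodes the peptide adrenomedullin (0.21), and Ankrd37, an ankyrin repeat gene (0.23). P4ha2 read 261 and 188 in ESC, 351 and 252 in EpiSC-like cells, and 1152 and 1404 at day 7. Nearest to Jun were Gm11627 (0.16) and the glutathione peroxidase family genes Gpx7 (0.17) and Gpx8 (0.19). Gpx8 read 119 and 55.8 in ESC, 274 and 365 in EpiSC-like cells and 117 and 176 at day 7. Nearest to Egr1 were Cyp11a1, a steroid-synthesis enzyme gene (0.19), the zinc finger gene Zfp473 (0.19) and Accsl (0.20). Zfp473 read 1333 and 837 in ESC, 705 and 524 in EpiSC-like cells and 394 and 389.7 at day 7, and so had the Egr1 pattern of high and unequal ESC arrays. With 6 arrays in 3 groups, many genes have similar profiles, and nearness is a description of these arrays.

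**Figure D4:**
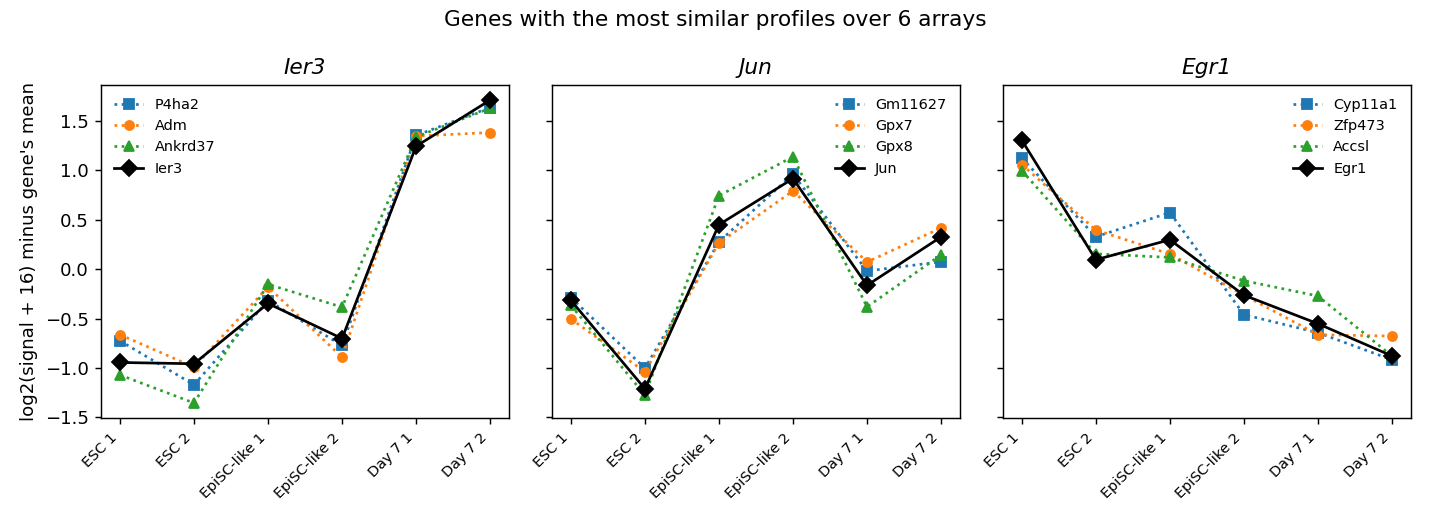
Profiles over the 6 arrays of Ier3, Jun and Egr1 (black diamonds) and of the 3 nearest genes of each (coloured), as log2(signal + 16) minus the gene's mean; lines only join the points of a gene. The Ier3 panel is low on 4 arrays and high on both day 7 arrays, the Jun panel peaks in EpiSC-like cells, and the Egr1 panel is highest on ESC replicate 1.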

How the data were processed

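The files the authors deposited hold 1 intensity per probe set, on a linear scale, for 6 arrays, 2 per group, prepared from 100 ng of total RNA, per the labels' protocols. Per the submitters' processing notes the authors used Affymetrix Expression Console (version 1). Its algorithm and the genome build are not given in the sources used here. Leaving out the top and bottom 2% of values, each array averaged 500.0, so the intensities had been scaled before deposition. Detection calls were not used here, and the number of arrays limits the precision.

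Of 45101 probe sets, 64 controls were left out, and 34945 of the rest had 1 gene, 932 several and 9160 none. The probe set with the highest mean stood for a gene, which gave 18193 genes. A limma fit (version 3.58.1 under R 4.3.3) used log2(signal + 16) with 3 group means, no block and 3 residual degrees of freedom, without a filter on dim genes. Its adjusted p-values are Benjamini-Hochberg values over all genes, and a gene was called under 0.05. The code was tested on simulated data. Members, lists and motifs were chosen with earlier results of these data known. Genes were named by rule: all members, called list genes or the widest value of a list, and 3 nearest genes for each of 3 members. Gata4, Sox17, Ttr, Col4a1, Fabp7, Pax6, Pdgfra, Pecam1, Sox2 and Fgf5 were named outside this rule, after their values were seen. Of 132 list genes 123 were measured, 4 through newer symbols. Scaling, pseudocount, filter, probe set, block and leave-one-out alternatives were run.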

Additional observations from a re-analysis of the deposited data

How the results depend on the processing

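Of 348 values of single members under the alternatives, 322 kept their direction and their side of the threshold, 15 changed sign, 9 were no longer called and 2 became called. Direction could not change with the replicate block, all probe sets fitted together or the filter, where the log2 differences equal those of the main fit. The same holds without an array outside the comparison, so the share that kept direction is not a measure of stability. The member called in day 7 against ESC, Ier3, kept its call with a pseudocount of 64, with arrays centred on their median, with quantile normalization and with the filter at the 25th percentile of mean signal. The count of called members fell from 1 to 0 with a pseudocount of 1, with all probe sets fitted together, with the replicate block and without each array in turn (0 to 0). In day 7 against EpiSC-like cells it went from 0 to 1, again Ier3, with a pseudocount of 64 (1.90) and with the filter (2.00). In EpiSC-like cells against ESC it was 0 throughout. The 6 calls of list genes were all kept with a pseudocount of 64, centring and the filter, 5 of 6 with quantile normalization (Klf4 lost), and 0 of 6 under the other alternatives. Deviations of arrays with the same replicate number from their group means correlated with r = 0.29 for ESC and EpiSC-like cells. The r was 0.08 for ESC and day 7 and 0.09 for EpiSC-like cells and day 7. The main fit did not take the numbers as pairs, although the sets differed technically and the first of these correlations was above 0. The Ier3 call therefore depends on that choice.

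Over all genes, EpiSC-like cells against ESC had 346 calls. This became 666 with a pseudocount of 64, 645 with the filter, 129 with all probe sets, 0 with a pseudocount of 1 or the replicate block and 0 to 62 without 1 array. Day 7 against ESC had 191 (139 higher and 52 lower). This became 661 with a pseudocount of 64, 518 with the filter, 0 with all probe sets, a pseudocount of 1 or the replicate block, and 0 to 3 without 1 array. Its split was 100 higher and 74 lower with arrays centred on their median, which moved the median of all genes from 0.02 to -0.15, and 95 and 56 with quantile normalization. Day 7 against EpiSC-like cells had 0, which became 209, 139 and 10 with a pseudocount of 64, the filter and centring, and stayed 0 otherwise.

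Changes of sign were seen only in uncalled values of Fos, Fosb, Fosl1, Junb and Atf3. In day 7 minus EpiSC-like, Fos turned to -0.043 with centring and Junb to -0.010 with quantile normalization. Without 1 array the log2 differences ranged as follows. In EpiSC-like minus ESC, Fos ranged from -0.22 to 0.75, Fosb from -0.15 to 1.21 and Fosl1 from -1.30 to 0.64. In day 7 minus ESC, Fos ranged from -0.17 to 0.80, Fosl1 from -1.20 to 0.36 and Atf3 from -0.48 to 0.14. In day 7 minus EpiSC-like, Fos ranged from -0.023 to 0.13, Fosl1 from -1.06 to 0.88, Junb from -0.47 to 0.73 and Atf3 from -0.10 to 0.86. The cause was not tested. Signals near the pseudocount, as for Fosl1 and Fosb, limit what these arrays can show.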
